A study of Homo sapiens with 8 samples.

Results

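The integrins and laminins described here are 37 genes: 18 integrin alpha chains, 8 integrin beta chains and 11 laminin chains. They were chosen by name, as every listed gene whose symbol is given for a probe of the array that is not a control, and they are 37 of 27274 gene names on it. The 37 genes have 51 probes, 27 genes with 1 probe and 10 with several. The rule itself uses no measured value, but the members were chosen with earlier results of these data known.

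The study asked what changes in pancreatic ductal adenocarcinoma cells when HOXB7, a homeobox transcription factor, is silenced. MIA PaCa-2 cells, from a primary tumor, were grown in RPMI 1640 medium with 10% fetal bovine serum, and Capan-1 cells, from a liver metastasis, in IMDM with 20% fetal bovine serum. Each line gave 2 arrays of cells treated with a HOXB7-specific siRNA (10 nM, 48 h) and 2 arrays of parental cells, which are the labelled controls, 8 arrays in all. None of these arrays is of cells given a scrambled siRNA, so transfection and loss of HOXB7 cannot be told apart. The lines were kept in different media, so medium and line cannot be told apart. The study's methods name RPMI for plating before transfection, and whether this held for Capan-1 is not said. Medium may thus differ between the siRNA and parental arrays of Capan-1. Each line is a single culture line, so neither stands for primary tumors or metastases in general. The labels do not say that the duplicates were separate cultures, so the p-values measure the spread between arrays, which may be technical.

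Integrins are cell surface receptors made of an alpha and a beta chain, and each pairing sets which matrix protein or cell surface ligand is bound. Laminins are trimers of an alpha, a beta and a gamma chain and are the main adhesive proteins of basement membranes, the sheets on which epithelial cells rest. In ductal epithelium, laminin receptors containing ITGA3, ITGA6, ITGB1 and ITGB4 fix cells to this sheet, and tumor cells often show altered sets of both families.

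Levels are log2 intensities relative to the 75th percentile of the array, so that a probe at 0 has the intensity of that percentile. The array software called between 69.2% and 74.3% of spots well above background, and 33 to 37 of the 51 integrin and laminin probes on each array, with 0 saturated spots among them. Duplicate arrays correlated with r between 0.994 and 0.997 across probes. HOXB7 itself was at -4.82 and -4.10 in parental MIA PaCa-2 and at -7.77 and -7.78 after siRNA, where it was not well above background, at least 2.82-fold lower (limma adjusted p = 0.0174). In Capan-1 it was at -2.48 and -2.34 on the parental arrays and -5.26 and -4.80 on the siRNA arrays (limma adjusted p = 0.126). Of 8 ductal epithelial markers, 8 were above background on both parental Capan-1 arrays and 5 on both parental MIA PaCa-2 arrays, where CDH1, EPCAM and CEACAM6 were not, and VIM, a mesenchymal marker, was at 7.87 and 8.01 in MIA PaCa-2 and at -1.01 and -1.11 in Capan-1. Of 3 platelet, 3 endothelial and 4 fibroblast markers, 2, 2 and 2 were above background on both parental MIA PaCa-2 arrays and 2, 2 and 1 on both parental Capan-1 arrays. The lines were on separate slides, and siRNA arrays took the first positions of a slide and parental arrays the last, so slide and line cannot be told apart, nor position and treatment. In RNA from whole cultures, fewer cells of a kind and less RNA per cell cannot be told apart either.

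Of the 37 genes, 24 had a probe well above background on both parental arrays of both lines. Detected in Capan-1 alone were the collagen receptor chains ITGA1 and ITGA2 and the beta chains ITGB6 and ITGB8, which pair with ITGAV. Detected in MIA PaCa-2 alone were ITGA10, ITGA4, ITGAD and LAMA4, with ITGAD and the brightest probe of LAMA4 also above background on 1 parental Capan-1 array, and that LAMA4 probe on both Capan-1 siRNA arrays. In neither line were both parental arrays above background for ITGA8, ITGAL, ITGB3, LAMA1 and LAMB4. These are a matrix receptor chain, a leukocyte chain, the beta chain of platelets that also pairs with ITGAV, and a pair of laminin chains. ITGAL was above background on 1 siRNA array of MIA PaCa-2, and LAMA1, by its other probe, on 1 parental array of Capan-1. LAMA3 counts as detected in both lines through 1 of its probes only. The plot of all members by array shows these patterns.

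**Figure D1:**
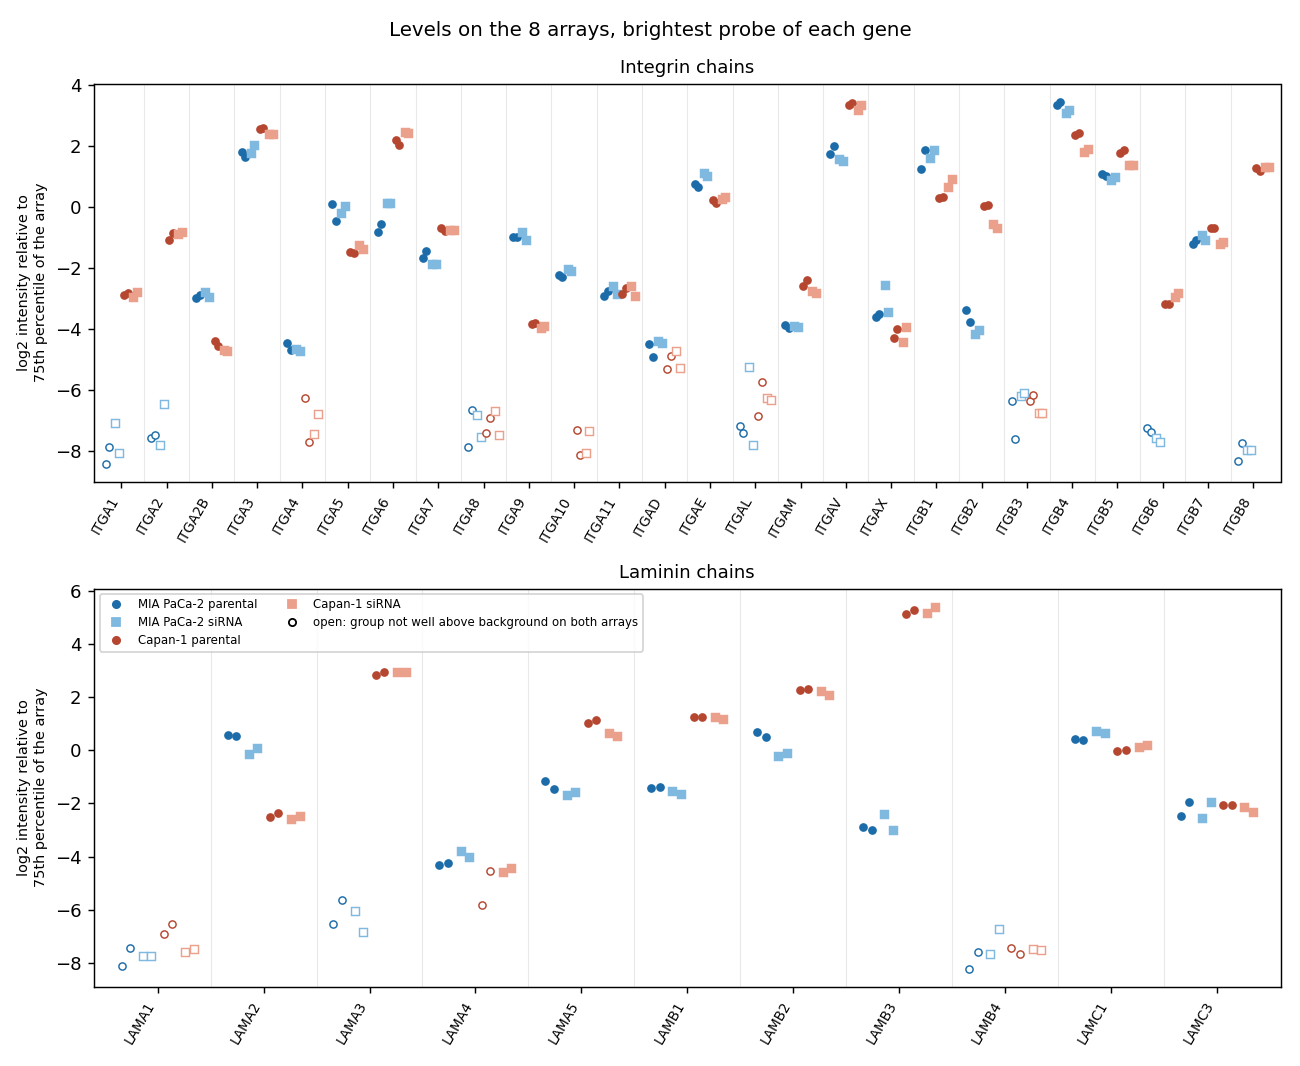
Level of each integrin chain (upper panel) and laminin chain (lower panel) on the 8 arrays, by its brightest probe, as log2 intensity relative to the 75th percentile of the array. Points are single arrays, colored by group, and open points mark groups not well above background on both arrays. ITGB8 and LAMA3 have open points in MIA PaCa-2 and lie above 1 in Capan-1, and ITGA10 is open in Capan-1.

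Parental MIA PaCa-2 differed from parental Capan-1 in most integrin and laminin genes. Of 32 genes tested, 17 had less mRNA in MIA PaCa-2, 11 had more and 4 were not past the threshold, a limma adjusted p of 0.05. Of all genes tested in this comparison, 31.7% were called lower and 40.1% higher, so a large part of the array differed and the members' count is read against that. The median fitted log2 difference was -0.61 over the members and 0.10 over all genes. Scaling to spike-in probes in place of the 75th percentile turned the split of all genes from 6378 lower and 8059 higher to 7407 lower and 5702 higher, and gave 18 lower and 9 higher members. Probes not well above background in 1 line have only a bound: the fold is then given as at least the bright level over, on each dim array, the higher of the probe's own level and the lowest level called above background.

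Of 16 integrin alpha chains tested, 7 had less mRNA in MIA PaCa-2 and 6 had more. ITGA2, the alpha chain of an epithelial collagen receptor, was at -1.09 and -0.87 on the parental Capan-1 arrays and at -7.58 and -7.50 on the parental MIA PaCa-2 arrays. It was at least 32.4-fold lower in MIA PaCa-2 (limma adjusted p = 2.62e-05). ITGA1, the alpha chain of another collagen receptor, was at -2.90 and -2.83 in Capan-1 and at -8.43 and -7.87 in MIA PaCa-2, at least 8.80-fold lower (limma adjusted p = 3.75e-05). Neither was above background on any MIA PaCa-2 array, and their genes lie near each other on chromosome 5. ITGA6, which forms laminin receptors with ITGB1 or ITGB4, was at -0.83 and -0.56 in MIA PaCa-2 and at 2.19 and 2.02 in Capan-1. It was 6.96-fold lower in MIA PaCa-2 (log2 difference -2.80, standard error 0.12, limma adjusted p = 5.84e-06), and its other probe gave -2.49.

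ITGA10, a further collagen receptor chain known from cartilage, ran the other way. It was at -2.26 and -2.31 in MIA PaCa-2 and at -7.34 and -8.14 in Capan-1, at least 12.3-fold higher in MIA PaCa-2 (limma adjusted p = 2.43e-05). ITGA9, whose receptor with ITGB1 binds tenascin and osteopontin, was at -0.99 ± 0.02 (SD, n = 2) in MIA PaCa-2 and at -3.84 ± 0.01 (SD, n = 2) in Capan-1. All 4 arrays were above background and the fold was 7.19 (log2 difference 2.85, standard error 0.11, limma adjusted p = 3.89e-06). ITGA4, which binds VCAM1 and fibronectin and is best known from leukocytes, was at -4.48 and -4.70 in MIA PaCa-2 and at -6.28 and -7.71 in Capan-1. It was at least 2.50-fold higher in MIA PaCa-2 (limma adjusted p = 0.00444), on 1 of its 3 probes, the others being in the background in every group. Its log2 difference was 3.12 without parental Capan-1 replicate 1, against 2.41 with all arrays. With normexp background correction it was 0.26 and ITGA4 did not pass (limma adjusted p = 0.050012).

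The remaining alpha chains differed less. The fibronectin receptor chain ITGA5 was 1.32 higher on the log2 scale in MIA PaCa-2, the platelet chain ITGA2B 1.53 higher and ITGAE, which binds CDH1, 0.53 higher, which did not pass with spike-in scaling. ITGAV fell by 1.50 from Capan-1 to MIA PaCa-2, the myeloid chain ITGAM by 1.44, ITGA3 by 0.85 and ITGA7 by 0.81. ITGA11, ITGAD and ITGAX did not pass the threshold, with log2 differences of -0.08 (95% interval -0.47 to 0.30), 0.40 (-0.23 to 1.03) and 0.59 (-0.19 to 1.37).

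All 7 beta chains tested were past the threshold, 5 lower and 2 higher in MIA PaCa-2. ITGB8, which pairs with ITGAV and takes part in the activation of latent TGF-beta, was at 1.26 and 1.15 on the parental Capan-1 arrays. In MIA PaCa-2 it was at -8.35 and -7.76, in the background, at least 148-fold lower (limma adjusted p = 5.26e-07). ITGB6, another epithelial partner of ITGAV with the same known role, was at -3.19 and -3.18 in Capan-1 and at -7.24 and -7.40 in MIA PaCa-2, at least 7.05-fold lower (limma adjusted p = 8.43e-07). The common partner ITGAV was above background on all 8 arrays.

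ITGB2, the shared beta chain of leukocyte integrins, was at 0.03 and 0.04 in Capan-1 and at -3.41 and -3.78 in MIA PaCa-2. The fold was 12.4 (log2 difference -3.63, standard error 0.14, limma adjusted p = 4.33e-06), and the arrays of the lines did not overlap. The leukocyte markers PTPRC, CD3E, CD14 and CD79A were all 4 above background in both parental lines. Their summed log2 level was 2.59 to 2.62 on the parental MIA PaCa-2 arrays and 0.95 to 1.06 on the parental Capan-1 arrays. PTPRC, by its brightest probe, was at -1.94 and -1.95 in MIA PaCa-2 and at -3.43 and -3.95 in Capan-1, and CD14 and CD79A were also called higher in MIA PaCa-2. CD3E went the same way as ITGB2, at -3.05 and -3.09 in MIA PaCa-2 and at -1.58 and -1.70 in Capan-1 (log2 difference -1.43, limma adjusted p = 0.00622). The part of such markers in the level of ITGB2 was not tested. ITGB1, the partner of most alpha chains, was 1.23 higher on the log2 scale in MIA PaCa-2, and ITGB4, the hemidesmosome chain, 1.00 higher. ITGB5 fell by 0.77 from Capan-1 to MIA PaCa-2 and ITGB7 by 0.44, and ITGB7 did not pass with normexp or with no scaling between arrays.

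**Figure D2:**
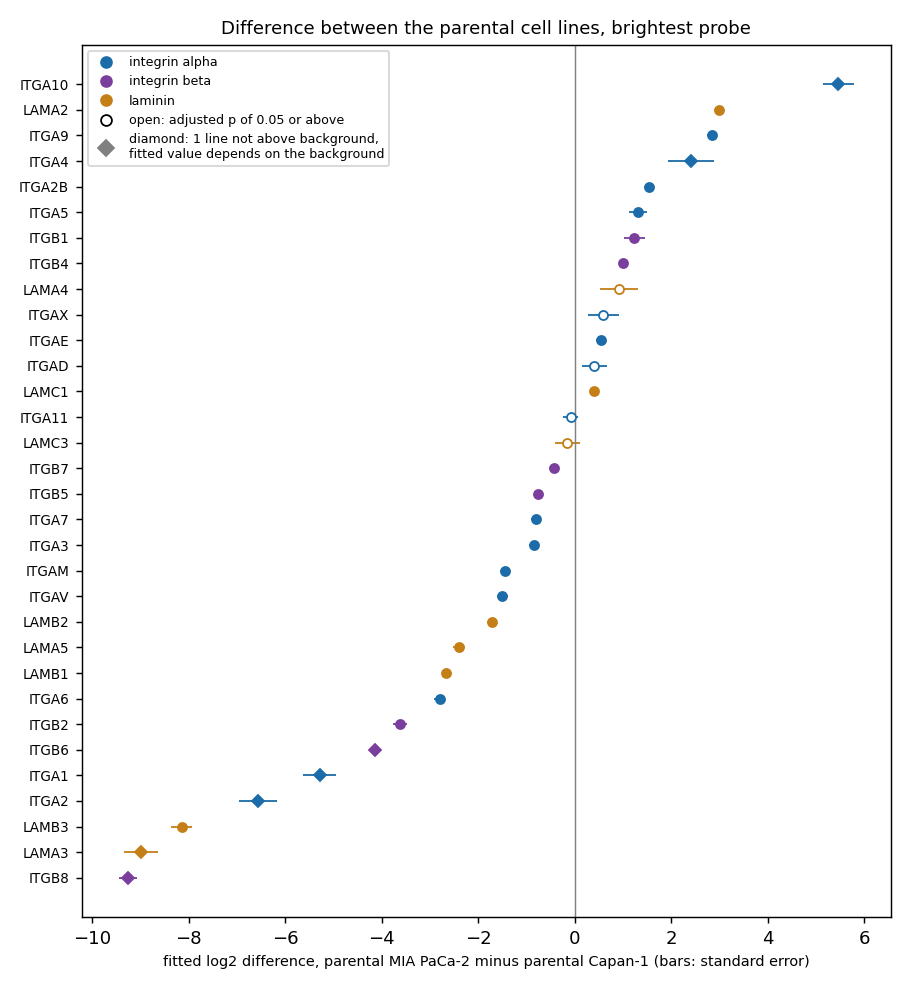
Fitted log2 difference between parental MIA PaCa-2 and parental Capan-1 for the 32 members tested, by the brightest probe, with standard errors as bars. Filled symbols passed an adjusted p of 0.05, and diamonds mark genes in the background in 1 line. LAMB3, with all 4 parental arrays above background, lies at -8.15, and LAMA2 lies at 2.99.

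The laminin chains held some of the widest differences, with 5 lower and 3 higher in MIA PaCa-2 of 9 tested. LAMA3 and LAMB3 encode the alpha and beta chains of the laminin that anchors epithelia through hemidesmosomes. LAMB3 was at 5.13 and 5.28 on the parental Capan-1 arrays and at -2.89 and -2.99 on the parental MIA PaCa-2 arrays. It was above background on every array and 283-fold lower in MIA PaCa-2 (log2 difference -8.15, standard error 0.21, limma adjusted p = 1.09e-06). LAMA3 was at 2.86 and 2.96 in Capan-1 and at -6.53 and -5.62 in MIA PaCa-2, in the background there and at least 441-fold lower (limma adjusted p = 4.79e-06).

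The probes of LAMA3 gave different sizes. The second probe was at -2.70 and -2.77 in Capan-1 and at -3.82 and -3.86 in MIA PaCa-2, a log2 difference of -1.11 (standard error 0.09, limma adjusted p = 7.55e-05) with every array above background. Both lie on the plus strand of chromosome 18 in hg18, the build of the probe coordinates, with their starts 170608 bases apart. A_23_P89780, which was in the background in MIA PaCa-2, is at chr18:19788733-19788792, and A_33_P3262560 is upstream at chr18:19618125-19618184. Bases 31 to 60 of each 60-base probe are shown because the size of the LAMA3 difference turns on which of them is read.
A_23_P89780: atcactttggcattcagtgctacatgtgta
A_33_P3262560: agcaggccctcagcagaaactgaaccagcc

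LAMA4, a laminin alpha chain of vessels and mesenchymal tissue, has 4 probes that differed among themselves in the same comparison. A_33_P3391603 was at -2.20 and -2.03 in MIA PaCa-2 and at -7.54 and -6.39 in Capan-1, at least 13.9-fold higher in MIA PaCa-2 (limma adjusted p = 5.89e-05). A_33_P3308749 was at least 3.52-fold higher and A_33_P3308744 at least 1.79-fold higher, both in the background in Capan-1. The brightest probe over all 8 arrays, A_33_P3391596, did not pass, with a log2 difference of 0.91 (95% interval -0.05 to 1.87, limma adjusted p = 0.0799). Bases 31 to 60 of these probes, all on the minus strand of chromosome 6, follow in the order of their hg18 coordinates from high to low, which is the direction of transcription. Capitals mark AATAAA, the usual polyadenylation signal, which was searched in the written strand and stands in 7.67% of all 60-base probes (its reverse complement TTTATT in 3.8%) and in 3 of the 51 member probes.
A_33_P3391603: cttgaAATAAAgagttttcctttgtaagtt
A_33_P3308749: cgagtgtttggacggctcaggatactgtgt
A_33_P3308744: tctgtctgacgtagaggaattagttgaaaa
A_33_P3391596: caccatgataagctaaagttaattatttta
The probe holding AATAAA, at chr6:112681680-112681739, was the one with the largest difference and the furthest upstream, 145846 bases from A_33_P3391596. The annotation of the array ties it to another transcript record than A_33_P3391596. Whether AATAAA serves as a signal there was not tested.

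LAMA2, the alpha chain of muscle and nerve basement membranes, was at 0.60 and 0.54 in MIA PaCa-2 and at -2.49 and -2.34 in Capan-1, 7.94-fold higher in MIA PaCa-2 (log2 difference 2.99, standard error 0.11, limma adjusted p = 3.93e-06). LAMA5, the broadly expressed epithelial alpha chain, was at -1.16 and -1.45 in MIA PaCa-2 and at 1.04 and 1.14 in Capan-1, 5.26-fold lower (limma adjusted p = 1.35e-05). LAMB1, the beta chain of many embryonic and adult laminins, was at -1.42 and -1.39 in MIA PaCa-2 and at 1.26 and 1.27 in Capan-1, 6.37-fold lower (limma adjusted p = 1.94e-06). In all 3 genes the arrays of the lines did not overlap. LAMB2 fell by 1.72 on the log2 scale from Capan-1 to MIA PaCa-2, and by 1.94 on its other probe. The gamma chain LAMC1 was 0.40 higher in MIA PaCa-2, the smallest laminin difference past the threshold and not past it with spike-in or no scaling. LAMC3 did not pass on any of its 3 probes. The brightest gave -0.16 (95% interval -0.78 to 0.47), A_33_P3277527 gave 0.22 and A_33_P3277532 gave -1.065 (limma adjusted p = 0.0776). LAMC3 did pass with no scaling, with spike-in scaling, with an intensity trend and with only the parental arrays fitted.

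Normexp background correction, which adds an offset of 50 to every spot, gave smaller differences between the lines for dim probes. The log2 difference was then -1.94 for ITGA2, -0.88 for ITGA1, -3.92 for ITGB8, -0.64 for ITGB6, -5.11 for LAMA3 and 1.14 for ITGA10, each below the bound given above and each still past the threshold. It was -6.95 for LAMB3, -2.10 for ITGB2, 2.00 for LAMA2 and 1.48 for ITGA9, all past the threshold.

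LAMB3, and LAMA3 by its brightest probe, were far lower in MIA PaCa-2, and sequence before a start of each is shown. They were also the only members with a window that held the AP-1 motif described below. ITGB8 and ITGA2 were far lower in MIA PaCa-2 too, and their windows held no match to it. A gene can have several windows. The window shown for each gene is the 1 that held the AP-1 motif described below, and any other window of these genes held no match. The windows were not matched to the transcripts that the probes read. RefSeq promoter windows (GRCh38.p14, another build than that of the probes) were at hand for 26 of the 37 genes, with 33 windows, and the 250 bases before each start were searched on both strands for the motif of AP-1 factors (TGANTCA) and for a GC box. The AP-1 motif was in 2 of the 33 member windows, 1 of LAMA3 and 1 of LAMB3, and in 6.57% of 35116 windows of all genes. Its share among the member windows was thus not above that of all windows. The GC box, written GGGCGG and not overlapping the other motif, was in 17 member windows against 42.6% of all windows. Capitals mark the AP-1 motif in both windows, LAMA3 at chr18:23872770-23873019 on the plus strand and LAMB3 at chr1:209651375-209651624 on the minus strand.
LAMA3: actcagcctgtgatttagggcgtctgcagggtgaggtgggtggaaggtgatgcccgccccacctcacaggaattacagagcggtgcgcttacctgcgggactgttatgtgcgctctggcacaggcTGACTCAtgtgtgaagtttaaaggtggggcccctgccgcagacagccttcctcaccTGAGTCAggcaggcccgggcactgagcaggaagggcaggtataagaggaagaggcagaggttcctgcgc
LAMB3: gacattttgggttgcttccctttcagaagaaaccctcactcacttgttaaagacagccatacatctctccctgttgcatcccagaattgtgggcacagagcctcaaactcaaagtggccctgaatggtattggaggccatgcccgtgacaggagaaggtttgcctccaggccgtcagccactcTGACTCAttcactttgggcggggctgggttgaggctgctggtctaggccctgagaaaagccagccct
The LAMA3 window holds 2 matches, starting 125 and 69 bases before the start, and the LAMB3 window holds 1, starting 67 bases before it. A match is a description of these letters, and no binding was measured.

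**Figure D3:**
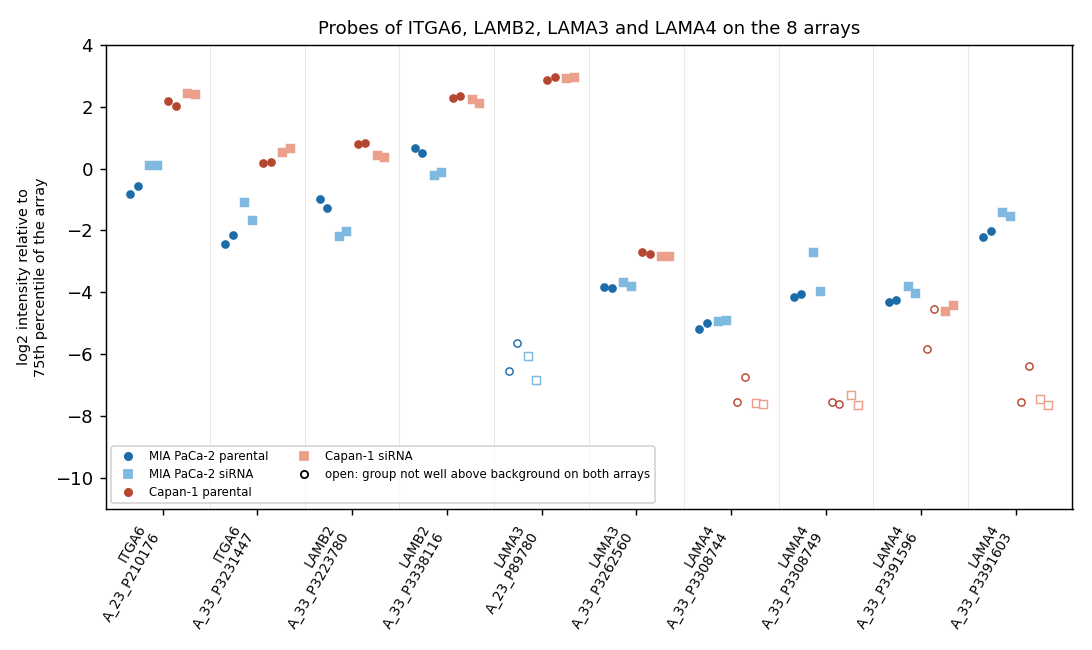
Level of each probe of ITGA6, LAMB2, LAMA3 and LAMA4 on the 8 arrays, as log2 intensity relative to the 75th percentile of the array, with open points for groups not well above background on both arrays. Both LAMB2 probes are lower and both ITGA6 probes higher on the MIA PaCa-2 siRNA arrays than on its parental arrays, and the LAMA4 probes differ in how far the lines lie apart.

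The proteins that act with integrins and laminins also differed between the lines. Of 21 adaptors and kinases that link integrins to actin and to signaling, 12 were higher in MIA PaCa-2 and 5 were lower. ITGB1BP1, also on this list, had probes past the threshold both ways (0.61 and -1.04). LIMS2, an adaptor in the complex of integrin-linked kinase, was 6.67 higher on the log2 scale, the kindlin FERMT2 2.34 higher. The kindlin FERMT1 fell by 2.19 from Capan-1 to MIA PaCa-2 and the kinase PTK2B by 3.60. Of 4 hemidesmosome genes, COL17A1, its transmembrane collagen, was at least 69.7-fold higher in MIA PaCa-2. Plectin (PLEC1 on the array) fell by 2.12, CD151 did not pass (-0.04) and of the DST probes some passed as higher and some as lower. Of 13 basement membrane proteins and other ligands tested, HSPG2 had probes passing both ways (-0.32 and 0.79), 2 were higher in MIA PaCa-2 and 8 were lower. Among them, CDH1, the ligand of ITGAE, was at least 861-fold lower and VCAM1, a ligand of ITGA4, at least 78.3-fold lower. ICAM1, a ligand of ITGB2 integrins, fell by 6.80 on the log2 scale from Capan-1 to MIA PaCa-2, where it was above background on 1 of 2 parental arrays. MADCAM1, a ligand of ITGA4 and ITGB7, was at least 7.72-fold higher. FERMT1 and MADCAM1 were named after their values were seen. The share of all genes called in this comparison, given above, applies to these lists too.

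After HOXB7 siRNA in MIA PaCa-2, 2 of 28 integrin and laminin genes tested passed the threshold: ITGA6 was higher and LAMB2 lower. Of all genes tested in this comparison 1.12% were called lower and 1.15% higher, with 214 lower and 220 higher, or 32 and 14 with no scaling between arrays. At an unadjusted p under 0.05 on a probe there were 10 member genes of 28, against 23.4% of all genes. The median log2 fold change was 0.07 over the members and 0.02 over all genes.

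LAMB2 encodes the laminin beta chain of the kidney filter and the neuromuscular junction and is also made by epithelia. Its probe A_33_P3338116 was at 0.68 and 0.49 on the parental arrays and at -0.22 and -0.11 on the siRNA arrays. It fell by 0.75 on the log2 scale (standard error 0.10, limma adjusted p = 0.0354). The other probe, A_33_P3223780, was at -0.98 and -1.28 on the parental arrays and at -2.17 and -2.02 on the siRNA arrays, a fall by 0.96 (standard error 0.12, limma adjusted p = 0.0314). On both probes the siRNA arrays lay below the parental arrays without overlap.

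ITGA6 was at -0.83 and -0.56 on the parental arrays and at 0.13 and 0.13 on the siRNA arrays by probe A_23_P210176. It rose by 0.82 on the log2 scale (standard error 0.12, 95% interval 0.54 to 1.11, limma adjusted p = 0.0379). Its other probe, A_33_P3231447, was at -2.44 and -2.15 and then at -1.10 and -1.67, a difference of 0.91 that did not pass (limma adjusted p = 0.0846). Again the siRNA arrays did not overlap the parental arrays on either probe.

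The probes of ITGA6 and LAMB2 lie at separate positions of their genes, and both LAMB2 probes but 1 of 2 ITGA6 probes passed. Bases 31 to 60 of each probe are shown because the calls rest on them. The ITGA6 probes lie on the plus strand at chr2:173078802-173078861 and chr2:173077449-173077508 (hg18) with starts 1353 bases apart. Those of LAMB2 lie on the minus strand at chr3:49133588-49133647 and chr3:49134148-49134207, with starts 560 bases apart.
ITGA6 A_23_P210176: aaagtctcagtttcttgcttggggaacttg
ITGA6 A_33_P3231447: ttttggcgtggctgacttacatcatgtgtt
LAMB2 A_33_P3338116: atgtctgcctatgcactgaagagctcttgg
LAMB2 A_33_P3223780: tctacagcagaagaaacggcaggcagtgcc

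Both calls were lost under several settings. With the 4 MIA PaCa-2 arrays fitted alone, with no scaling between arrays, with spike-in scaling, or with any 1 Capan-1 array left out, neither gene passed. Neither passed without siRNA replicate 1 or parental replicate 1 of MIA PaCa-2, and without parental replicate 2 LAMB2 passed and ITGA6 did not. Both genes passed without siRNA replicate 2, and both with normexp background correction, quantile scaling, an intensity trend and probes above background on all 8 arrays. Over 20 alternatives the log2 fold change stayed between 0.61 and 0.96 for ITGA6 (A_23_P210176) and between -0.96 and -0.63 for LAMB2 (A_33_P3338116).

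The third smallest adjusted p was that of LAMA2, at 0.60 and 0.54 on the parental arrays and at -0.13 and 0.09 on the siRNA arrays. The log2 fold change was -0.59 (95% interval -0.86 to -0.32, limma adjusted p = 0.0617), and the groups did not overlap. For the 27 members whose brightest probe was tested, the 95% interval reached from 0.20 to 1.15 on either side of the estimate, with a median of 0.28. The largest log2 fold change on any member probe was that of LAMC3 by A_33_P3277532, 1.05 (95% interval -0.06 to 2.16, limma adjusted p = 0.264). The other probes of LAMC3 gave -0.04 and 0.05. Of the 20 adaptors and kinases, 4 hemidesmosome genes and 9 ligands and receptors tested here, 0 passed in limma, the nearest being VCL, an actin linker named after its values were seen, at a log2 difference of -0.61 (limma adjusted p = 0.0517).

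In Capan-1, 0 of 29 integrin and laminin genes passed in limma, against 0.0053% of all genes, which is 1 gene. At an unadjusted p under 0.05 on a probe there were 9 member genes of 29, against 14.6% of all genes. ITGB4, the beta chain of hemidesmosomes, had the smallest adjusted p. It was at 2.36 and 2.42 on the parental arrays and at 1.78 and 1.88 on the siRNA arrays, a log2 fold change of -0.56 (95% interval -0.78 to -0.34, limma adjusted p = 0.174). ITGB5, a partner of ITGAV that binds vitronectin, was at 1.77 and 1.85 and then at 1.38 and 1.37, a difference of -0.44 (limma adjusted p = 0.216). The leukocyte chain ITGB2 was at 0.03 and 0.04 and then at -0.58 and -0.71, a difference of -0.68 (limma adjusted p = 0.227). In all 3 beta chains the siRNA arrays lay below the parental arrays. Of 20 adaptors and kinases, 3 hemidesmosome genes and 11 ligands and receptors tested in Capan-1, 0 passed.

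A rule rebuilt from the study's methods was also applied, with an interval holding 99% of the log2 ratios between the parental duplicates at like intensity. A gene counts when over 50% of its probes are above background on at least 1 array and all of these lie outside that interval on the same side, on both siRNA arrays, each against the parental array of the same number. The width of the intensity window, the signal call and the way arrays were set against each other were chosen here, so its counts need not be those of the study's software. With at least 2 probes required, 5 members could be called in each line and 0 were. When genes with 1 probe were allowed, a choice made after seeing the data, 5 of 28 members were lower in Capan-1 (ITGB2, ITGB4, ITGB5, ITGB7 and LAMA5) and 1 was higher (ITGB1), where 0.672% of all genes were lower and 0.77% higher. The same rule in MIA PaCa-2 called 0 of 26 members, where 0.224% of all genes were lower and 0.194% higher. Its limit depends on intensity, with a median of 0.83 on the log2 scale in Capan-1 and 1.06 in MIA PaCa-2. Each member called in Capan-1 changed by less than that median on average. The shares of all genes were not matched to the members on intensity. The genes not yet described, named after their values were seen, are ITGB7, LAMA5 and ITGB1. ITGB7, a lymphocyte beta chain, was at -0.71 and -0.70 on the parental Capan-1 arrays and at -1.21 and -1.15 on the siRNA arrays. LAMA5 was at 1.04 and 1.14 and then at 0.66 and 0.54, and ITGB1 at 0.30 and 0.32 and then at 0.65 and 0.92. Their limma adjusted p were 0.227, 0.28 and 0.441.

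Of the genes with more mRNA in Capan-1 than in MIA PaCa-2, LAMB3, LAMA3, ITGB8, ITGA1, ITGA2 and ITGB6 are described here. Their log2 fold changes after siRNA in Capan-1 lay between -0.02 and 0.30, and none passed. Other genes higher in Capan-1 had larger values, among them ITGB2 (-0.68), LAMA5 (-0.49) and ITGA6 (0.32), which did not pass either. LAMB3 was at 5.18 and 5.42 on the siRNA arrays, against 5.13 and 5.28 on the parental arrays, and the groups overlapped (log2 fold change 0.09, 95% interval -0.43 to 0.61). LAMA3 was at 2.94 and 2.95, against 2.86 and 2.96 (0.03, 95% interval -0.83 to 0.90), and ITGB8 at 1.31 and 1.29, against 1.26 and 1.15 (0.09, 95% interval -0.37 to 0.56). The collagen receptor chains ITGA1 and ITGA2 gave -0.02 (95% interval -0.87 to 0.83) and 0.12 (-0.84 to 1.09), and ITGB6 gave 0.30 (0.05 to 0.54, limma adjusted p = 0.349). The intervals of LAMA3, ITGA1 and ITGA2 are the widest of these, and a change within them was not detectable with these arrays. With spike-in scaling the log2 fold changes of LAMB3, LAMA3, ITGB8, ITGA2 and ITGB6 were below 0, and the median of all probes was then -0.46.

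Among the members that were higher in MIA PaCa-2 than in Capan-1, LAMA4 and LAMA2 had the largest differences after siRNA in MIA PaCa-2, and none of these members passed. ITGA9 was at -0.85 and -1.10 on the siRNA arrays (log2 fold change 0.02, 95% interval -0.24 to 0.28), ITGA10 at -2.06 and -2.12 (0.20, 95% interval -0.59 to 0.99) and ITGA4 at -4.66 and -4.75 (-0.12, 95% interval -1.27 to 1.03). The LAMA4 probe A_33_P3391603 was at -1.39 and -1.54 on the siRNA arrays, above both parental arrays, and did not pass (0.65, 95% interval -0.22 to 1.52, limma adjusted p = 0.363). Its probe A_33_P3308749 was at -2.69 and -3.97, against -4.13 and -4.05 (0.77, 95% interval -0.19 to 1.72, limma adjusted p = 0.331). On all 4 LAMA4 probes the siRNA arrays lay above the parental arrays, and with normexp background correction LAMA4 passed as higher. With no scaling between arrays the log2 fold changes of ITGA9 and ITGA10 were below 0, and with normexp that of ITGA4 was above 0.

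**Figure D4:**
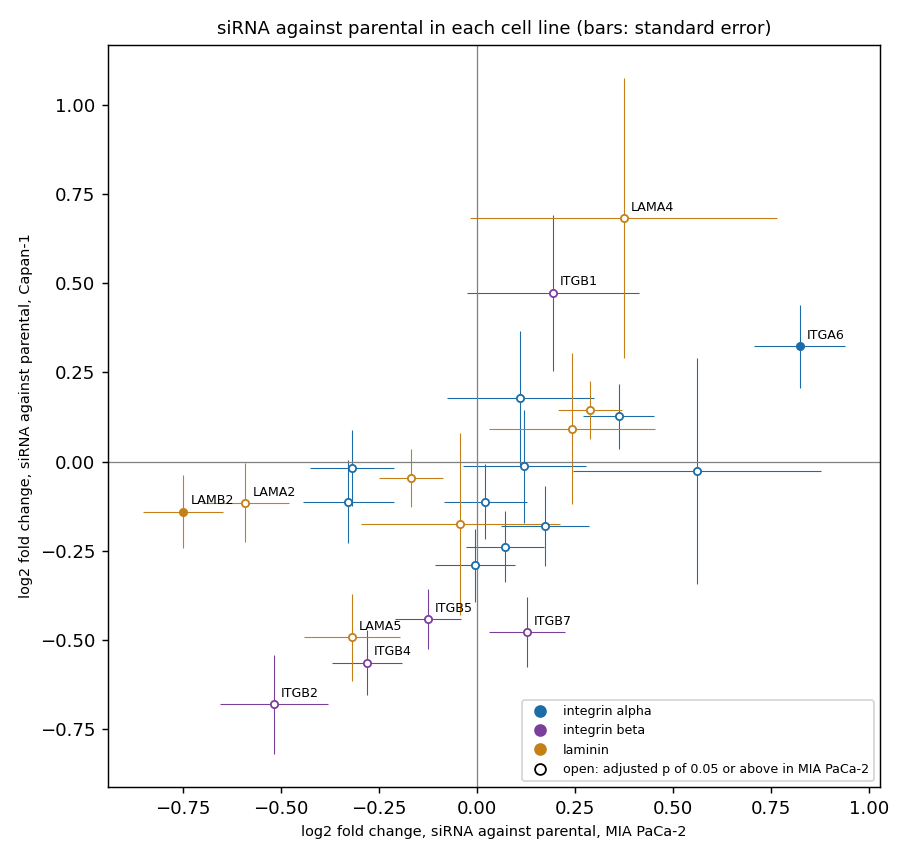
Log2 fold change of HOXB7 siRNA against parental cells in MIA PaCa-2 (horizontal axis) and in Capan-1 (vertical axis) for the 24 members whose brightest probe was tested in both lines, with standard errors as bars. Filled points passed an adjusted p of 0.05 in MIA PaCa-2. ITGA6 (0.82 and 0.32) and LAMB2 (-0.75 and -0.14) are the only filled points, and ITGB2, ITGB4, ITGB5 and LAMA5 lie below 0 on both axes.

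Whether the siRNA acted differently in the lines was tested as the difference of both log2 fold changes. Of 32 members tested 0 passed, against 0.00486% of all genes, which is 1 gene, and 6 member genes had an unadjusted p under 0.05 on a probe, against 13.2% of all genes. In Capan-1 the log2 fold change was 0.32 for ITGA6 (95% interval 0.04 to 0.61), negative with spike-in scaling, and -0.14 for LAMB2 by A_33_P3338116 (-0.39 to 0.11). By A_33_P3223780, LAMB2 was at 0.80 and 0.82 on the parental Capan-1 arrays and at 0.43 and 0.36 on the siRNA arrays, without overlap (log2 fold change -0.42, 95% interval -0.72 to -0.12, limma adjusted p = 0.312). The difference, MIA PaCa-2 minus Capan-1, was 0.50 for ITGA6 (95% interval 0.10 to 0.90, limma adjusted p = 0.367) and -0.61 for LAMB2 (-0.97 to -0.25, limma adjusted p = 0.249). By brightest probes, ITGB7 had the largest positive difference among the members, 0.60 (95% interval 0.27 to 0.94, limma adjusted p = 0.237). A response particular to 1 line was therefore not shown for any of these genes, and an equal response was not shown either.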

How the data were processed

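RNA of the 8 samples was hybridized to one-color Agilent arrays, and the authors used Feature Extraction 9.5.3 to subtract background and detrend. The deposited intensity of each spot, with its flags, was used, and the log2 values that were also deposited served as an alternative. Probe positions are in hg18.

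Spots flagged as outliers were dropped, log2 intensities were averaged per probe, and each array's 75th percentile over 34127 gene probes (43118 spots) was subtracted. A probe entered a test when both arrays of 1 or more of the compared groups were well above background. Group means were fitted to all 8 arrays with limma 3.58.1 (lmFit, eBayes) in R 4.3.3, two-sided, with Benjamini-Hochberg adjustment over all probes tested and a threshold of 0.05. A gene was called when a probe passed in 1 direction and none in the other, and its brightest probe stands for it. With 2 arrays against 2, an exact permutation test cannot give a p under 0.333. The number of arrays limits the precision.

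Members and lists were chosen with earlier results of these data known. Values are given for the 14 members with the largest fold changes past the threshold between the lines, those past it in an siRNA comparison, and the 3 smallest adjusted p of each siRNA comparison, and for the adhesion lists the largest fold changes past the threshold. The interval rule used a window of 1001 probes. Alternatives were normexp (offset 50), quantile, spike-in or no scaling, outlier spots kept, other filters on dim probes, fewer arrays, a replicate block, an intensity trend, each array left out in turn and a minimum log2 fold change of 1. The steps were run on simulated data with independent noise on each probe and array. Those data hold no shared effect of an array, a slide or the scaling, so they do not test such effects. Tables and figures were made with data.table version 1.17.8, jsonlite 2.0.0, Python 3.11.15, pandas 2.3.3, numpy 2.4.6 and matplotlib 3.10.9. Of the markers, LYZ was not found by name among the probes. A further listed marker is not reported here.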

Additional observations from a re-analysis of the deposited data

How the results depend on the processing

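The members named by rule kept the direction of their log2 difference between the lines, and of their siRNA fold change in the line they were named for, under all alternatives run. ITGA4 lost its call between the lines with normexp. In the difference of the siRNA fold changes, LAMA2 went from -0.48 to 0.01 with spike-in scaling and ITGB2 from 0.16 to -0.02 without parental MIA PaCa-2 replicate 2, neither past the threshold. In Capan-1, 9 members turned sign with spike-in scaling, among them ITGA6, LAMB3, LAMA3, ITGB8, ITGA2 and ITGB6. Between the lines, 17 lower and 11 higher members became 13 to 19 and 6 to 12, with 6 higher at a minimum log2 fold change of 1. With 1 array left out they were 17 to 19 and 11 to 12. In MIA PaCa-2, 1 lower and 1 higher member after siRNA became 0 and 0 with no scaling, spike-in scaling, no filter on dim probes, that line fitted alone, a minimum log2 fold change of 1 and both forms of the interval rule. They became 2 and 2 with normexp (adding LAMA2 and LAMA4) and with an intensity trend (adding LAMA2 and ITGAE), and 2 lower with probes above background on all 8 arrays. With 1 array left out the range was 0 to 1 lower and 0 to 3 higher, 3 without siRNA replicate 2. In Capan-1, 0 lower members became 2 with normexp (ITGB2 and ITGB4), 1 with an intensity trend (ITGB4) and 5 by the interval rule with single-probe genes, which also gave 1 higher. The adhesion lists, with 14 lower and 15 higher between the lines, gave 8 lower with probes above background on all 8 arrays, 8 lower and 6 higher at the minimum fold change, and 9 higher with spike-in scaling. In MIA PaCa-2 they had 1 lower and 1 higher with normexp and with probes above background on all 8 arrays, 1 lower and 2 higher with an intensity trend, and 0 to 1 higher with 1 array left out. In Capan-1 they had 2 higher with normexp and 1 with the trend, and for the difference between the lines 0 to 1 higher with 1 array left out. The cause of these changes was not tested. Scaling to spike-ins moved the median of all probes from 0.11 to -0.14 between the lines, to -0.46 in Capan-1 and to 0.50 in the difference, and no scaling moved it to -0.19 for the siRNA in MIA PaCa-2 and to -0.16 for Capan-1.

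The labels do not say whether arrays of the same replicate number belong together. Deviations of same-numbered arrays correlated between -0.09 and 0.18 over the group pairs, which cannot exclude a shared culture or batch. With the replicate block, MIA PaCa-2 had 0 lower and 0 higher members after siRNA, Capan-1 had 0, and all 28 calls between the lines were kept.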
